A study of Arabidopsis thaliana with 24 samples.

Results

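In Arabidopsis thaliana rosettes, 49 of 32833 genes in the count table had mean transcript levels at least 1.7 times higher under caterpillars than under mites. A gene entered this set when its mean level under caterpillars was at least 1.7 times that under mites, both in plants grown from water-treated seed and in plants grown from seed treated with methyl jasmonate. It also needed a mean CPM of at least 3 (CPM is the raw count divided by the column sum and multiplied by 1000000) in both caterpillar groups. Of 15495 genes past that minimum, the ratio was met by 89 in plants from water-treated seed, by 131 in plants from methyl jasmonate-treated seed and by 49 in both, and 1 further gene is left out here. The genes were chosen by the caterpillar-to-mite ratio of these CPM values, so that ratio is given as a description, with no test.

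The plants were wild type (WT) and the tissue was the rosette. Seed received H2O (the not-primed plants) or methyl jasmonate (the primed plants), and rosettes of each kind were left free of pests or taken at 24 hours of attack by Tetranychus urticae, a spider mite, or by Pieris brassicae, whose caterpillars feed on cabbage relatives. The design thus has 6 groups with 4 libraries in each. The labels call the replicates biological without saying whether each was 1 plant or a pool. The p-values rest on the spread between these samples, and how far it reflects differences between single plants is not known. All groups share the genotype. The labels name no ecotype, no methyl jasmonate dose and no number of pests.

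Caterpillars chew away leaf tissue and crush the cells they cut, while spider mites pierce single cells with a stylet and empty them. Both kinds of feeding are known to raise jasmonates, lipid-derived hormones whose active form, jasmonoyl-isoleucine, releases defence genes from repression and is later inactivated by hydroxylases of the CYP94 family. Jasmonates also promote anthocyanin synthesis, through a complex of MYB, bHLH and WD40 proteins, and hold back growth processes such as cell wall loosening and auxin-dependent expansion.

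Library totals lay between 15852109 and 27986799 counts, and the 49 genes all passed the filter on low counts that left 20038 genes for testing. The 16 listed photosynthesis genes took between 79764 and 108483 CPM of each library and 5 root marker genes summed to at most 54.0 CPM, nearly all of it from SCR. The not-primed controls varied in the members. The median log2 fold change of the genes raised by caterpillars (below) was 2.69 with all 4 controls in not-primed plants. It was 2.06 without control replicates 1 and 2 and 3.84 without control replicates 3 and 4. Values without replicates 1 and 2 are given where they change a priming call or a caterpillar call of the genes raised by caterpillars or lowered by mites. Mite calls of single genes raised by caterpillars were not followed in this way. Because RNA came from whole rosettes, fewer cells of a type and less RNA per cell cannot be told apart.

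The set held genes that caterpillars raised and genes that mites lowered. With edgeR's quasi-likelihood test over all 20038 genes (Benjamini-Hochberg adjusted p under 0.05), 18 members were higher under caterpillars than in uninfested controls in both kinds of plant, where 9.05% of all tested genes were. Another 28 members were lower under mites than in controls in both kinds of plant and not raised by caterpillars in either, where 18.1% of all tested genes were. The last 3 members met neither description in full. These calls use the same pest libraries as the choice of genes, so the counts tell the classes apart and are not evidence for them. The labels "raised" and "lowered" below refer to these classes.

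**Figure D1:**
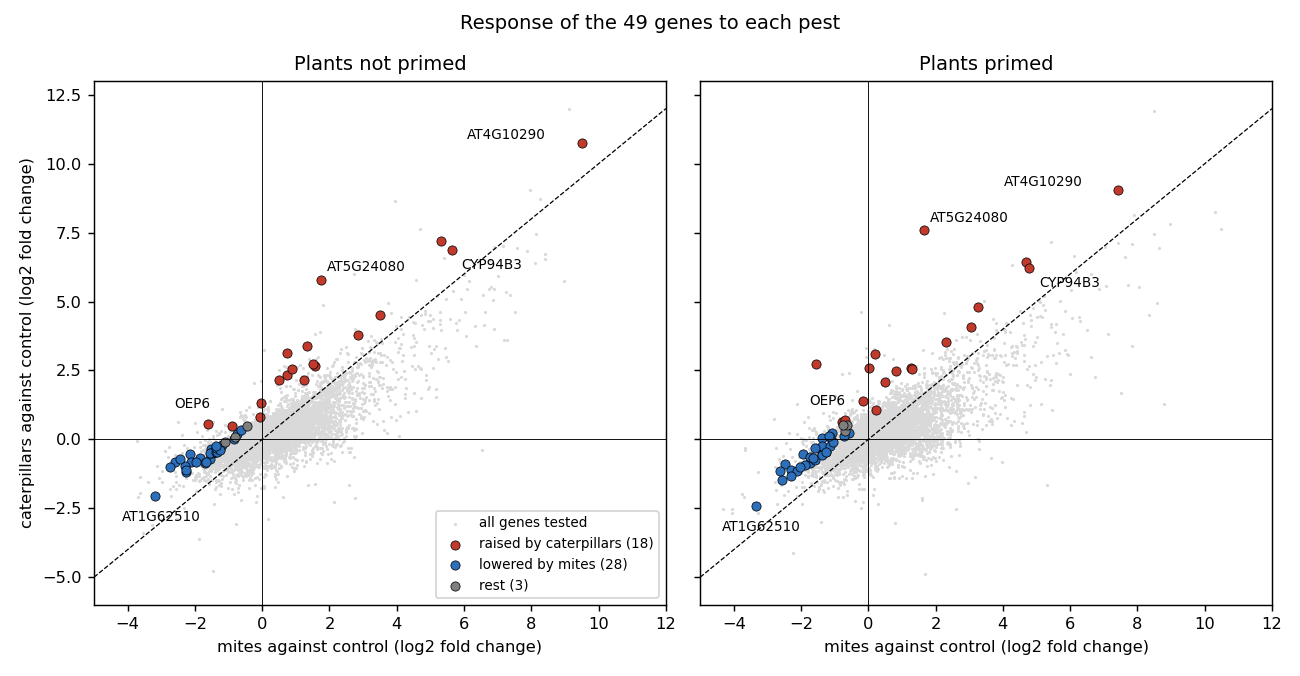
Each point is a gene, with its log2 fold change of mites against control on the x axis and of caterpillars against control on the y axis, in not-primed (left) and primed (right) plants. The 18 raised genes lie above the 28 lowered genes, and all members lie above the dashed line of equal response, as their choice requires. The position of AT4G10290 rests on 0 counts in the not-primed and 1 count in the primed controls and is not a bound. That of AT5G24080 in primed plants rests on 1 count in the controls and 5 counts under mites.

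Under caterpillars, 18 members were higher and 21 lower than the control in not-primed plants (14.2% and 13.6% of all tested genes, 27.8% in either direction), and 20 were higher and 16 lower in primed plants (12.1% and 11.8%, 23.9% in either direction). Under mites, 10 members were higher and 32 lower in not-primed plants (26.5% and 24.9% of all tested genes, 51.4% in either direction), and 8 were higher and 33 lower in primed plants (22.3% and 23.5%, 45.7% in either direction). The median log2 fold change of the raised genes was 2.69 in not-primed and 2.65 in primed plants under caterpillars and 1.29 and 1.03 under mites. The lowered genes had medians of −1.55 and −1.59 under mites and −0.52 and −0.56 under caterpillars. Over all tested genes these 4 medians lay between −0.021 and 0.012. The median of 2.69 was the same with AT4G10290, which had no counts in the not-primed controls, set to its lower bound.

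The 2 classes differed in what the other pest did. The splits that follow were not computed over all tested genes, so they describe the members only. Of the 18 raised genes, 8 were also raised by mites in both kinds of plant, 2 in 1 kind, 6 had no call under mites, and 2 were lowered by mites in both. This split depends on the libraries used. In not-primed plants 10 members were higher under mites, but 8 to 10 with 1 library left out and 7 to 11 in the other alternatives. In primed plants the number stayed at 8. Which raised genes lost a mite call was not followed. Of the 28 lowered genes, 15 were also lowered by caterpillars in both kinds of plant, 7 in 1 kind and 6 in neither. The wording "lowered by mites only" therefore holds, by these calls, for 6 genes: AT1G73600, AT3G09450, MT1C, IAMT1, AT5G46220 and AT4G36105. A missing call does not show that caterpillars had no effect. For AT1G73600, every primed caterpillar library lay below every primed control. Without not-primed control replicates 1 and 2, the lowered genes that caterpillars also lowered in not-primed plants numbered 7 in place of 21, and the genes lowered by mites alone numbered 10. The 14 not-primed caterpillar calls that ended without this pair are named where each gene is described. None of the 16 primed caterpillar calls of these genes ended without it, and 3 ended under at least 1 other alternative. Without not-primed control replicates 3 and 4 instead, caterpillars lowered 23 of these genes in not-primed plants, AT1G73600 among them. The genes lowered by mites alone then numbered 5.

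**Figure D2:**
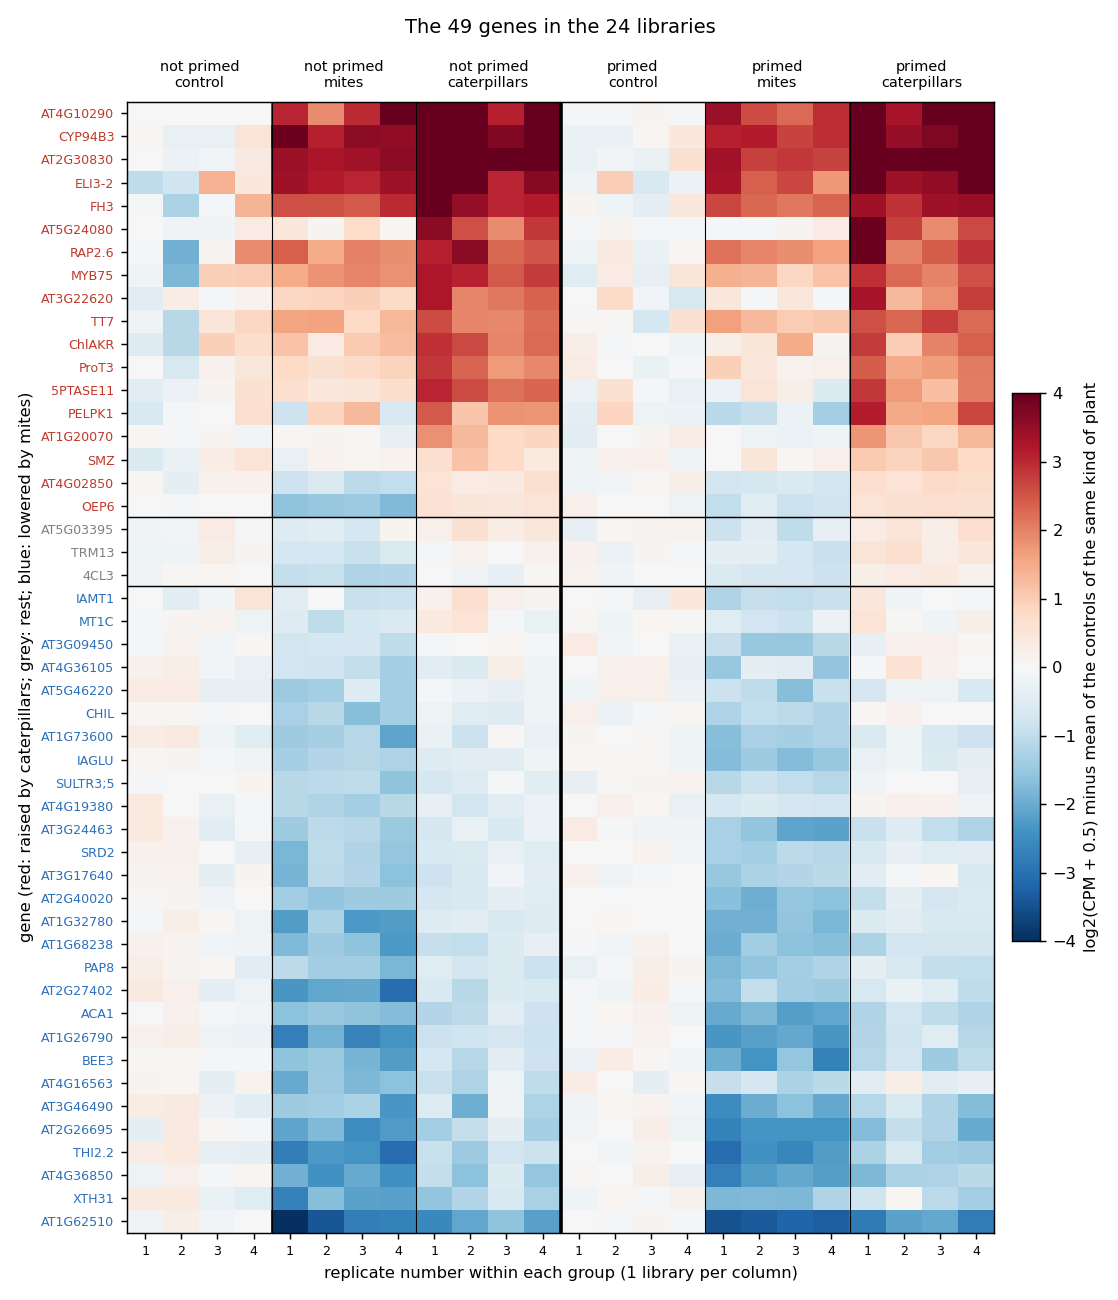
Each row is 1 of the 49 genes and each column 1 of the 24 libraries, coloured by log2(CPM + 0.5) minus the mean of the 4 controls of the same kind of plant, with colours capped at −4 and 4. The 18 raised genes are mostly above their controls in the caterpillar libraries, and the 28 lowered genes are mostly below their controls in the mite libraries.

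The most strongly raised members included an enzyme of jasmonate turnover. CYP94B3 (AT3G48520) encodes a cytochrome P450 that hydroxylates jasmonoyl-isoleucine and so lowers the active hormone. CYP94B3 measured 0.136, 0, 0 and 0.380 CPM in the 4 not-primed controls, 8.75, 4.80, 6.78 and 6.64 CPM under mites and 21.7, 20.9, 7.42 and 11.8 CPM under caterpillars. Primed CYP94B3 values were 0.0506, 0.0540, 0.197 and 0.393 CPM in controls, 5.18, 5.48, 3.83 and 4.61 CPM under mites and 21.4, 7.13, 8.23 and 14.4 CPM under caterpillars. All pest libraries were above all controls, and the caterpillar libraries were above the mite libraries in primed plants but overlapped them in not-primed plants. The log2 fold change under caterpillars was 6.88 ± 0.58 (SE) in not-primed and 6.22 ± 0.57 in primed plants, with 4 libraries per group here and throughout (edgeR adjusted p at most 3.39e-08). Under mites it was 5.63 ± 0.62 and 4.77 ± 0.62 (edgeR adjusted p at most 9.13e-07). The ratio of caterpillars to mites was 2.29 in not-primed and 2.68 in primed plants.

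Within the jasmonate turnover list of 10 genes, all 10 were higher than control under each pest in each kind of plant, yet the mean was higher under caterpillars than under mites only for CYP94B3 and CYP94B1. The other 8 had caterpillar-to-mite ratios from 0.17 to 0.93. CYP94B1, a close relative of CYP94B3, had a caterpillar-to-mite ratio of 1.85 in not-primed and 1.41 in primed plants, so it missed the threshold. CYP94C1, which carries the hydroxylated hormone on to its carboxylated form, had ratios of 0.35 and 0.34, with mean levels of 18.1 CPM under mites and 6.33 CPM under caterpillars in not-primed plants. JOX1, one of the oxygenases that hydroxylate jasmonic acid itself, had ratios of 0.20 and 0.17.

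AT4G10290 encodes a protein of the cupin family, barrel-shaped proteins with varied functions. AT4G10290 measured 0, 0, 0 and 0 CPM in the 4 not-primed controls, 3.62, 1.35, 3.44 and 8.63 CPM under mites and 19.5, 8.95, 3.86 and 7.69 CPM under caterpillars. Primed AT4G10290 values were 0, 0, 0.0492 and 0 CPM in controls, 5.08, 2.598, 1.96 and 3.47 CPM under mites and 15.4, 4.48, 8.65 and 10.6 CPM under caterpillars. It was listed at 0 counts in all 4 not-primed controls and at 1 count in the primed controls together. Against a floor of 3 counts over the group, its mean under caterpillars was at least 261-fold higher in not-primed plants. In primed plants the ratio was 767 (95% interval from 137 to 30318, exact, for counting error only). Its mite and caterpillar libraries overlapped in both kinds of plant, and its not-primed ratio of 2.35 moved over 1.60 to 3.56 when 1 library was left out.

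AT2G30830 encodes a 2-oxoglutarate and Fe(II)-dependent oxygenase, of a family that modifies many hormones and secondary metabolites. AT2G30830 measured 0.136, 0.0461, 0.0956 and 0.332 CPM in the 4 not-primed controls, 6.50, 5.70, 6.15 and 7.23 CPM under mites and 37.4, 27.2, 13.2 and 13.5 CPM under caterpillars. Primed AT2G30830 values were 0.0506, 0.108, 0.0492 and 0.506 CPM in controls, 6.22, 3.86, 4.12 and 3.79 CPM under mites and 26.3, 9.59, 11.7 and 12.3 CPM under caterpillars. The caterpillar libraries were above all mite libraries in both kinds of plant. Its log2 fold change under caterpillars was 7.21 ± 0.53 and 6.44 ± 0.55 (edgeR adjusted p at most 1.53e-08) and under mites 5.33 ± 0.59 and 4.67 ± 0.62. Of its length, 24.1% overlaps AT2G30820 on the opposite strand, and the use of strand in counting is not given in the sources used here.

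Raised members of the flavonoid and phenylpropanoid branch were a regulator and 2 enzymes. MYB75 (AT1G56650, also called PAP1) is a MYB transcription factor that switches on late anthocyanin genes. MYB75 measured 3.44, 0.784, 8.07 and 8.35 CPM in the 4 not-primed controls, 12.002, 14.8, 16.5 and 15.2 CPM under mites and 40.8, 37.1, 23.7 and 30.1 CPM under caterpillars. Primed MYB75 values were 2.94, 5.57, 3.35 and 6.18 CPM in controls, 12.4, 11.9, 8.002 and 10.005 CPM under mites and 35.6, 22.8, 18.6 and 28.2 CPM under caterpillars. All caterpillar libraries were above all mite libraries, which in turn were above the controls. Under caterpillars the log2 fold change was 2.72 ± 0.34 and 2.59 ± 0.35 (edgeR adjusted p at most 5.66e-06), and under mites 1.501 ± 0.35 and 1.25 ± 0.36 (at most 0.00643).

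TT7 (AT5G07990) encodes flavonoid 3′-hydroxylase, which sets the hydroxylation pattern that leads to cyanidin-type anthocyanins. TT7 measured 6.43, 3.09, 10.3 and 13.2 CPM in the 4 not-primed controls, 22.96, 23.4, 13.1 and 18.9 CPM under mites and 47.4, 29.6, 28.8 and 36.5 CPM under caterpillars. Primed TT7 values were 6.17, 6.16, 3.496 and 9.50 CPM in controls, 19.8, 15.5, 12.7 and 13.1 CPM under mites and 38.6, 31.6, 44.0 and 30.5 CPM under caterpillars. All caterpillar libraries were above all mite libraries, while mite libraries and controls overlapped in not-primed plants and were separate in primed plants. Under caterpillars its log2 fold change was 2.14 ± 0.28 and 2.55 ± 0.29 (edgeR adjusted p at most 3.31e-06), and under mites 1.24 ± 0.29 and 1.29 ± 0.30.

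The rest of the late flavonoid and anthocyanin list mostly leaned to the same side. Of its 18 tested genes, which include MYB75 and TT7, 16 were higher and 0 lower than control under caterpillars in not-primed plants, and 15 and 0 in primed plants. Under mites 11 were higher and 0 lower in not-primed plants, and 11 higher and 2 lower in primed plants. In 15 of the 18 the caterpillar mean was above the mite mean in both kinds of plant, a share not computed over all tested genes. The median ratio of the list was 1.33 and 1.68, against 0.97 and 1.00 over all tested genes. DFR, which makes the leucoanthocyanidin precursors, had ratios of 1.19 and 1.67, and LDOX, the next enzyme, 1.26 and 1.69. The list's MYB113 went the other way, with ratios of 0.49 and 0.60. The list and the members were chosen with earlier results of these data known, so these counts describe the list and do not test it.

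ELI3-2 (AT4G37990) encodes a cinnamyl alcohol dehydrogenase family member known as a pathogen elicitor-responsive gene. ELI3-2 measured 0.0453, 0.138, 2.39 and 0.996 CPM in the 4 not-primed controls, 11.01, 9.40, 8.74 and 11.04 CPM under mites and 30.3, 26.5, 8.68 and 13.4 CPM under caterpillars. Primed ELI3-2 values were 0.405, 1.46, 0.148 and 0.337 CPM in controls, 9.22, 4.67, 5.80 and 2.79 CPM under mites and 25.2, 9.78, 11.1 and 17.9 CPM under caterpillars. Its controls varied over a wide range at low levels, and its mite and caterpillar libraries overlapped in not-primed plants. Under caterpillars the log2 fold change was 4.51 ± 0.57 and 4.82 ± 0.62 (edgeR adjusted p at most 2.80e-06), and under mites 3.496 ± 0.58 and 3.26 ± 0.67.

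A pair of AP2/ERF family transcription factors were among the raised genes. RAP2.6 (AT1G43160) is an ethylene response factor known to respond to jasmonate, wounding and abscisic acid. RAP2.6 measured 1.31, 0, 1.58 and 6.55 CPM in the 4 not-primed controls, 9.54, 4.80, 7.15 and 6.43 CPM under mites and 16.02, 22.7, 8.79 and 10.4 CPM under caterpillars. Primed RAP2.6 values were 0.860, 1.46, 0.788 and 1.12 CPM in controls, 6.42, 5.44, 5.03 and 4.14 CPM under mites and 22.9, 5.55, 7.66 and 10.97 CPM under caterpillars. The primed controls lay close together, whereas not-primed control replicate 4 reached into the mite range, and mite and caterpillar libraries overlapped in both kinds of plant. Under caterpillars its log2 fold change was 2.66 ± 0.53 and 3.52 ± 0.61 (edgeR adjusted p at most 0.000477), and under mites 1.56 ± 0.55 and 2.32 ± 0.64 (at most 0.0196). SMZ (AT3G54990, SCHLAFMÜTZE), a repressor of flowering, was at 3.96 ± 1.56 CPM (mean ± SD) in not-primed controls, 3.84 ± 0.606 under mites and 6.74 ± 1.62 under caterpillars. Its caterpillar and control libraries overlapped in not-primed plants. On the log2 scale its change under caterpillars was 0.81 ± 0.21 and 1.08 ± 0.22 (edgeR adjusted p at most 0.00494), and the not-primed call ended without control replicates 1 and 2 (0.42, edgeR adjusted p = 0.220).

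AT5G24080, which encodes a protein kinase family member, had the highest caterpillar-to-mite ratio of the set, 16.1 in not-primed and 75.0 in primed plants. The primed ratio rests on 5 counts in the 4 mite libraries, with a 95% interval from 28.2 to 207 for pooled counts (exact, counting error only), and was 224 without mite replicate 4. AT5G24080 measured 0.0453, 0, 0 and 0.190 CPM in the 4 not-primed controls, 0.262, 0.10003, 0.424 and 0.0846 CPM under mites and 6.25, 2.78, 1.56 and 3.43 CPM under caterpillars. Primed AT5G24080 values were 0, 0.0540, 0 and 0 CPM in controls, 0, 0, 0.0479 and 0.143 CPM under mites and 7.33, 2.90, 1.41 and 2.67 CPM under caterpillars. Every caterpillar library was above every control and mite library. Its log2 fold change under caterpillars in not-primed plants was 5.79 ± 0.75 (edgeR adjusted p = 2.95e-06), against 5 counts in the 4 controls. In primed plants the controls held 1 count, and the ratio was 274 (95% interval from 48.8 to 10859). Under mites it had no call (1.74 ± 1.06, edgeR adjusted p = 0.180, and 1.64 ± 1.75, adjusted p = 0.474). Its level is low: the mean over all libraries was 0.410 FPKM (fragments scaled to gene length and library size, which allows genes of different length to be compared), the smallest of the 49.

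FH3 (AT4G15200) encodes a formin, a protein that nucleates actin filaments. FH3 measured 0.679, 0, 0.669 and 2.61 CPM in the 4 not-primed controls, 6.71, 6.55, 6.09 and 9.05 CPM under mites and 20.1, 13.2, 9.46 and 10.5 CPM under caterpillars. Primed FH3 values were 0.708, 0.486, 0.345 and 1.01 CPM in controls, 6.53, 4.95, 4.31 and 5.07 CPM under mites and 11.1, 7.76, 11.2 and 11.9 CPM under caterpillars. Both pests raised it in both kinds of plant, and the caterpillar libraries were above the mite libraries. Under caterpillars its log2 fold change was 3.78 ± 0.41 and 4.08 ± 0.46 (edgeR adjusted p at most 4.57e-07), and under mites 2.84 ± 0.43 and 3.05 ± 0.48.

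AT3G22620 encodes a small secreted-type protein of the lipid transfer family. AT3G22620 measured 0.226, 0.691, 0.430 and 0.569 CPM in the 4 not-primed controls, 1.21, 1.25, 1.38 and 1.14 CPM under mites and 8.65, 3.25, 3.64 and 4.45 CPM under caterpillars. Primed AT3G22620 values were 0.607, 1.40, 0.542 and 0.225 CPM in controls, 1.04, 0.568, 1.05 and 0.572 CPM under mites and 10.5, 2.27, 3.49 and 7.14 CPM under caterpillars. Controls and mite libraries were low, and all caterpillar libraries were above them. Under caterpillars its log2 fold change was 3.39 ± 0.48 and 3.11 ± 0.46 (edgeR adjusted p at most 1.80e-05). Mites raised it in not-primed plants (1.35 ± 0.53, edgeR adjusted p = 0.0375) and it had no call in primed plants (0.20 ± 0.54, adjusted p = 0.795), and the interaction did not pass (edgeR adjusted p = 0.515).

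Other raised genes are given by group means. ProT3 (AT2G36590), a transporter of proline and related compounds, was at 6.10 ± 1.92 CPM in not-primed controls, 10.4 ± 0.802 under mites and 30.0 ± 10.9 under caterpillars (log2 fold change under caterpillars 2.33 ± 0.26 and, in primed plants, 2.07 ± 0.26). 5PTASE11 (AT1G47510), an inositol polyphosphate phosphatase, was at 0.858 ± 0.451 CPM in not-primed controls, 1.44 ± 0.178 under mites and 7.34 ± 2.11 under caterpillars. ChlAKR (AT2G37770), a chloroplast aldo-keto reductase that removes reactive carbonyls, was at 1.96 ± 1.49, 3.61 ± 1.00 and 11.2 ± 3.35 CPM in the same order. Mites gave 5PTASE11 and ChlAKR no call in either kind of plant.

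PELPK1 (AT5G09530), a repeat-rich cell wall protein, had the second highest ratio in primed plants, 18.6, against 3.07 in not-primed plants. Leaving out 1 library moved these ratios over 14.2 to 28.8 and 2.45 to 4.601. Its levels were 1.35 ± 0.869 CPM in primed controls, 0.463 ± 0.343 under mites and 8.61 ± 4.95 under caterpillars. Under mites it ranged from 0.472 to 3.76 CPM in not-primed and from 0.179 to 0.958 CPM in primed plants, and the interaction of priming and mites did not pass (−2.04 ± 0.91, edgeR adjusted p = 0.277). Its not-primed caterpillar call ended without control replicates 1 and 2 (edgeR adjusted p = 0.0712), and 2.5% of its 50-base exon windows occur elsewhere in the genome. AT1G20070, of unknown function, rose under caterpillars by 1.32 ± 0.21 and 1.38 ± 0.22 on the log2 scale, but 97.9% of its length lies opposite AT1G05523, so reads of the pair cannot be told apart without strand.

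Only OEP6 and AT4G02850 among the 49 members were raised by caterpillars and lowered by mites in both kinds of plant. OEP6 (AT3G63160) encodes a small protein of the plastid outer envelope, and at 114 FPKM on average it was the most abundant member per length. OEP6 measured 96.1, 91.4, 95.9 and 95.2 CPM in the 4 not-primed controls, 30.5, 33.0, 34.2 and 27.7 CPM under mites and 142, 133, 129 and 138 CPM under caterpillars. Primed OEP6 values were 63.9, 54.9, 55.3 and 47.4 CPM in controls, 27.7, 39.1, 30.3 and 31.8 CPM under mites and 81.4, 85.1, 87.3 and 84.3 CPM under caterpillars. The 3 states did not overlap in either kind of plant. Caterpillars raised it by 0.55 ± 0.083 and 0.63 ± 0.085 on the log2 scale (edgeR adjusted p at most 2.33e-05). Mites changed it by −1.61 ± 0.088 and −0.77 ± 0.087 (adjusted p at most 1.09e-07).

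AT4G02850 encodes a protein of the PhzC/PhzF family, named after bacterial phenazine synthesis enzymes. AT4G02850 measured 53.3, 39.6, 57.7 and 57.7 CPM in the 4 not-primed controls, 29.1, 34.7, 24.6 and 25.5 CPM under mites and 76.2, 65.4, 65.6 and 81.1 CPM under caterpillars. Primed AT4G02850 values were 41.4, 43.2, 48.0 and 55.6 CPM in controls, 27.7, 28.8, 31.2 and 27.0 CPM under mites and 74.4, 69.1, 79.8 and 76.3 CPM under caterpillars. Caterpillar libraries were above controls and mite libraries below them, with no overlap. The log2 fold changes were 0.50 ± 0.11 and 0.70 ± 0.11 under caterpillars (edgeR adjusted p at most 0.000853) and −0.89 ± 0.11 and −0.70 ± 0.11 under mites (at most 1.15e-05).

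**Figure D3:**
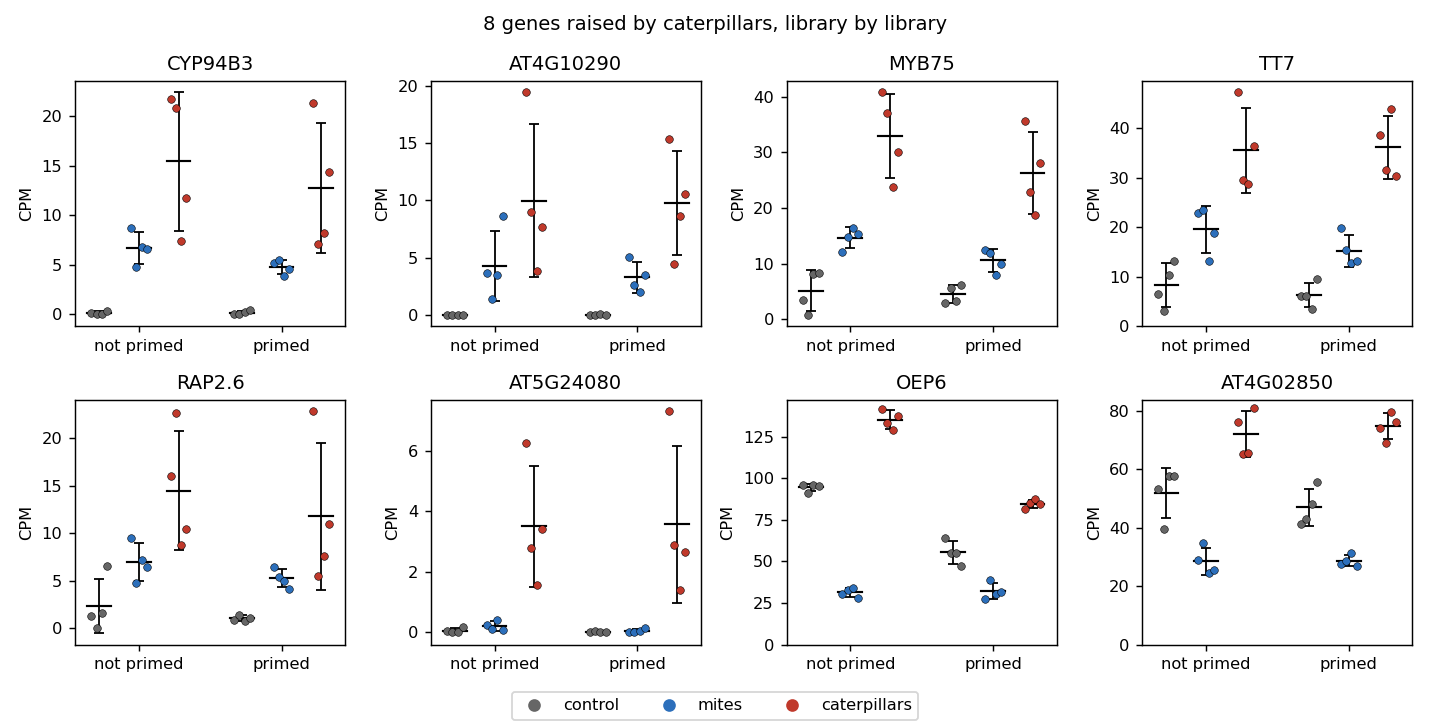
CPM of 8 raised genes in each library (points), with the mean and SD of each group of 4 (bars), for not-primed plants on the left and primed plants on the right of each panel. In all 8 the caterpillar mean is the highest of the 3 states in both kinds of plant; only OEP6 and AT4G02850 lie below the control under mites.

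The raised genes varied together between libraries of a group. Of the 18, not-primed caterpillar replicate 1 was the highest library of its group in 15 and replicate 3 the lowest in 14. In the primed caterpillar group, replicate 1 was the highest in 13 and replicate 2 the lowest in 11. The median log2 ratio of replicate 1 to the mean of the other 3 was 0.76 in not-primed and 0.95 in primed plants, against −0.026 and −0.025 over all genes past the CPM minimum. The lowered genes leaned the opposite way, with not-primed replicate 3 the highest of its caterpillar group in 18 of 28 and primed replicate 2 the highest in 19. Libraries of the same number in different groups correlated weakly (r from −0.175 to 0.2), with r = 0.17 between replicate 1 of the not-primed and of the primed caterpillar group. Whether the numbers mark a shared batch, and what set these libraries apart, was not tested.

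Without replicate 1 of both caterpillar groups, a choice made after seeing these values, the rule returned 41 genes, 40 of them among the 49. The 9 that dropped out were TT7, ELI3-2, RAP2.6, FH3, AT4G10290 and AT5G24080 of the raised genes and AT3G46490, MT1C and PAP8 of the lowered genes. AT5G24080 dropped out through the CPM minimum. All 18 raised genes were still called against control in both kinds of plant, with medians of 2.601 and 2.45. Not-primed controls varied as well: for the 18 raised genes, replicate 4 was the highest control in 12 and replicate 2 the lowest in 11.

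The promoters of the raised genes were read from the RefSeq genome, assembly TAIR10.1, from 250 bases before to 50 bases after each annotated gene start. All 49 members had one, as did 19940 tested genes. The G-box CACGTG, which MYC-type bHLH proteins are known to bind, and its variant AACGTG were searched on both strands. One or the other occurred in 6 of 18 raised genes (33.3%), in 4 of 28 lowered genes (14.3%) and in 16.6% of all tested genes. The variant alone occurred in 5 of 18 raised genes (27.8%) and in 8.75% of all, the G-box in 2 of 18 (11.1%) and 8.80%. The 150 bases before the start of these 6 genes are printed 5′ to 3′ on the gene's strand, with the motif in capitals.
RAP2.6 (chr1:16263655-16263804, plus strand): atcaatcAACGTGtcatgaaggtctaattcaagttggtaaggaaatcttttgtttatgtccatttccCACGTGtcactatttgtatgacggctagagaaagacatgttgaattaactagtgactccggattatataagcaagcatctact
AT5G24080 (chr5:8142433-8142582, minus strand): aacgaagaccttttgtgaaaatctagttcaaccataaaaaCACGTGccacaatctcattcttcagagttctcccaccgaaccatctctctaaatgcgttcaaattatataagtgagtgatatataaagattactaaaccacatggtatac
OEP6 (chr3:23334035-23334184, minus strand): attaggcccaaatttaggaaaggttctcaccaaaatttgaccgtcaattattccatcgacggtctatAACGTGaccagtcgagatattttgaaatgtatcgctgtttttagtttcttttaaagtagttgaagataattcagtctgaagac
AT4G02850 (chr4:1268613-1268762, minus strand): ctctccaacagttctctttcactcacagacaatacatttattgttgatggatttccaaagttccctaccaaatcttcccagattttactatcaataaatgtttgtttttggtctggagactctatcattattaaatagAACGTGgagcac
ProT3 (chr2:15345674-15345823, minus strand): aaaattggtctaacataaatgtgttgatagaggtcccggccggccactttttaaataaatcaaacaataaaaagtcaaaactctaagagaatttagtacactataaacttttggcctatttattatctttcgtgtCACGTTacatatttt
SMZ (chr3:20376523-20376672, minus strand): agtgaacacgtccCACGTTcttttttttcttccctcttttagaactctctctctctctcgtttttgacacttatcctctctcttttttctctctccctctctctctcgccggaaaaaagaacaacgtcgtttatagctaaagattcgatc
RAP2.6 held both forms, at −143 and −83 from the start, and each is followed by the letters that also make ACGTGTC, an abscisic acid response element. Each match is counted from the first base of the motif to the gene start. It lay at −110 in AT5G24080, −83 in OEP6, −12 in AT4G02850, −15 in ProT3 and −137 in SMZ. CYP94B3, AT4G10290, MYB75 and TT7 had neither form in this window. CYP94B3 held AATATCT, the core of the evening element of clock-regulated promoters, at −113, as did 4 of 18 raised genes (22.2%) and 11.5% of all. These matches describe the letters and were not tested.
CYP94B3 (chr3:17976775-17976924, minus strand): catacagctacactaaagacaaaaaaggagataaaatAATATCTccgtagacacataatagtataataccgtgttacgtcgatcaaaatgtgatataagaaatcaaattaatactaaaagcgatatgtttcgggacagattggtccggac

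Among the 28 lowered genes, the log2 fold change under mites ran from −3.17 to −0.64 in not-primed and from −3.34 to −0.59 in primed plants. Under caterpillars it ran from −2.07 to 0.33 and from −2.41 to 0.23. Mite and control libraries did not overlap for 27 of the 28 in not-primed and for all 28 in primed plants, as the mite calls that define the class largely require. The share of all tested genes without overlap was not computed, so these counts only describe the class.

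Auxin-modifying enzymes with and without a caterpillar call were among the lowered genes, and a difference between them in caterpillar response was not tested. IAGLU (AT4G15550) encodes a glucosyltransferase that conjugates the auxin indole-3-acetic acid. IAGLU measured 86.1, 89.3, 79.6 and 74.5 CPM in the 4 not-primed controls, 32.8, 36.4, 37.8 and 34.6 CPM under mites and 57.9, 59.7, 60.9 and 73.3 CPM under caterpillars. Primed IAGLU values were 62.3, 61.0, 61.6 and 53.2 CPM in controls, 17.7, 22.1, 17.63 and 20.3 CPM under mites and 48.7, 52.6, 39.7 and 46.4 CPM under caterpillars. The 3 states were separate in both kinds of plant, with controls highest and mite libraries lowest. Under mites the log2 fold change was −1.24 ± 0.093 and −1.60 ± 0.10 (edgeR adjusted p at most 1.47e-10), and under caterpillars −0.36 ± 0.09 and −0.32 ± 0.093 (at most 0.0130). The not-primed caterpillar call ended without control replicates 1 and 2 (−0.23, edgeR adjusted p = 0.156), and the primed call without caterpillar replicate 3. IAMT1 (AT5G55250), which methylates the same hormone, fell under mites, with log2 fold changes of −0.64 ± 0.25 and −1.17 ± 0.25 (edgeR adjusted p at most 0.0324) and had no call under caterpillars. Its not-primed call was lost in 5 of the alternative fits, with an adjusted p of up to 0.247.

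Growth-related genes included a cell wall enzyme and a transcription factor. XTH31 (AT3G44990) belongs to the enzymes that cut and rejoin xyloglucan in the wall. XTH31 measured 56.9, 57.0, 35.8 and 31.0 CPM in the 4 not-primed controls, 6.34, 13.004, 9.59 and 9.31 CPM under mites and 14.2, 19.0, 28.3 and 17.3 CPM under caterpillars. Primed XTH31 values were 21.1, 25.5, 22.6 and 27.1 CPM in controls, 6.58, 6.70, 6.56 and 10.2 CPM under mites and 13.6, 25.2, 11.4 and 9.12 CPM under caterpillars. Mite libraries were below all controls, and in primed plants caterpillar libraries overlapped both other states. On the log2 scale its change under mites was −2.27 ± 0.27 and −1.65 ± 0.27 (edgeR adjusted p at most 2.22e-05). Caterpillars lowered it in not-primed plants (−1.17 ± 0.25, edgeR adjusted p = 0.000840), a call that ended without control replicates 1 and 2 (−0.70, edgeR adjusted p = 0.0837). BEE3 (AT1G73830) is a bHLH factor induced by brassinosteroid that promotes growth. BEE3 measured 6.43, 6.55, 5.83 and 5.88 CPM in the 4 not-primed controls, 1.68, 1.90, 1.32 and 0.931 CPM under mites and 3.57, 2.50, 4.34 and 3.24 CPM under caterpillars. Primed BEE3 values were 11.2, 16.1, 13.5 and 12.2 CPM in controls, 3.06, 2.11, 4.17 and 1.57 CPM under mites and 5.63, 7.76, 4.58 and 6.31 CPM under caterpillars. Controls, caterpillars and mites ranked in that falling order with no overlap. The mite response was −2.11 ± 0.25 and −2.29 ± 0.22, and that under caterpillars −0.83 ± 0.22 and −1.10 ± 0.21 (edgeR adjusted p at most 0.00644). Without control replicates 1 and 2 its not-primed caterpillar call ended (−0.72, edgeR adjusted p = 0.0850).

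Small secreted-type proteins were also among the lowered genes. AT1G62510 belongs to the lipid transfer and seed storage albumin superfamily. AT1G62510 measured 187, 242, 191 and 202 CPM in the 4 not-primed controls, 12.3, 18.8, 29.7 and 31.3 CPM under mites and 34.05, 47.6, 66.4 and 44.5 CPM under caterpillars. Primed AT1G62510 values were 232, 225, 251 and 219 CPM in controls, 20.4, 22.3, 24.8 and 23.1 CPM under mites and 32.0, 52.6, 55.1 and 32.5 CPM under caterpillars. All 3 states were separate, in the order control, caterpillars, mites. Its log2 fold change was −3.17 ± 0.22 and −3.34 ± 0.22 under mites and −2.07 ± 0.21 and −2.41 ± 0.21 under caterpillars (edgeR adjusted p at most 1.10e-07). The gene AT1G62515 covers 60.2% of its length on the opposite strand. THI2.2 (AT5G36910) encodes a thionin, a small antimicrobial peptide. THI2.2 measured 58.8, 63.4, 38.03 and 37.0 CPM in the 4 not-primed controls, 6.66, 9.25, 8.74 and 5.41 CPM under mites and 25.6, 17.0, 27.8 and 26.4 CPM under caterpillars. Primed THI2.2 values were 40.7, 37.6, 45.5 and 40.7 CPM in controls, 4.51, 7.19, 6.28 and 8.29 CPM under mites and 16.8, 25.9, 15.4 and 14.6 CPM under caterpillars. Its states were separate in the same order. Its log2 fold change under mites was −2.75 ± 0.22 and −2.62 ± 0.22 and that under caterpillars −1.01 ± 0.19 and −1.16 ± 0.20 (edgeR adjusted p at most 0.000318).

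Metabolic enzymes were among the abundant lowered genes. ACA1 (AT3G52720) encodes an alpha carbonic anhydrase, which interconverts carbon dioxide and bicarbonate. ACA1 measured 158, 179, 156 and 147 CPM in the 4 not-primed controls, 50.6, 55.1, 51.8 and 47.7 CPM under mites and 71.2, 76.4, 119.6 and 90.4 CPM under caterpillars. Primed ACA1 values were 170.0, 182, 195 and 153 CPM in controls, 42.8, 49.6, 37.6 and 41.3 CPM under mites and 75.9, 103, 86.5 and 75.0 CPM under caterpillars. Controls were highest and mite libraries lowest, with no overlap. Mites changed it by −1.66 ± 0.12 and −2.02 ± 0.12, and caterpillars by −0.82 ± 0.12 and −1.02 ± 0.12 (edgeR adjusted p at most 1.07e-05). AT1G73600 encodes a methyltransferase of the S-adenosylmethionine-dependent superfamily. AT1G73600 measured 326, 346, 237 and 191 CPM in the 4 not-primed controls, 99.8, 107, 122 and 61.4 CPM under mites and 224, 146, 276 and 216 CPM under caterpillars. Primed AT1G73600 values were 289, 272, 279 and 237 CPM in controls, 82.1, 109.9, 106 and 113 CPM under mites and 179, 234, 175 and 150.02 CPM under caterpillars. Mite libraries were below all others, and caterpillar libraries overlapped the controls in not-primed plants and lay below them in primed plants. The mite response was −1.52 ± 0.20 and −1.38 ± 0.20 (edgeR adjusted p at most 3.23e-06), and caterpillars gave no call (−0.34 ± 0.19, adjusted p = 0.209, and −0.52 ± 0.19, adjusted p = 0.0524).

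CHIL (AT5G05270), a chalcone isomerase-like protein that assists the first steps of flavonoid synthesis, was the lowered member of the early flavonoid list. CHIL measured 102, 102, 93.8 and 100.03 CPM in the 4 not-primed controls, 39.9, 45.9, 30.4 and 38.7 CPM under mites and 86.7, 71.0, 69.4 and 85.8 CPM under caterpillars. Primed CHIL values were 87.6, 65.5, 74.9 and 80.1 CPM in controls, 32.3, 38.2, 36.5 and 33.1 CPM under mites and 79.9, 86.3, 78.0 and 77.8 CPM under caterpillars. Mite libraries were below all others in both kinds of plant. On the log2 scale its change under mites was −1.38 ± 0.10 and −1.13 ± 0.10 (edgeR adjusted p at most 3.45e-09). Its not-primed caterpillar call (−0.32 ± 0.10, edgeR adjusted p = 0.0169) ended without control replicates 1 and 2 (−0.25, edgeR adjusted p = 0.192), and also without control replicate 2, caterpillar replicate 2 or caterpillar replicate 3 alone. Of the 9 tested genes of that list, 4 were higher and 2 lower than control under caterpillars in not-primed plants, and 5 and 0 in primed plants. Under mites 2 were higher and 4 lower, and 2 and 3. All 9 had a higher mean under caterpillars than under mites in both kinds of plant, among them FLS1, flavonol synthase, with ratios of 1.88 and 1.66. Of the 9, 2 are members, chosen by this ratio. The median ratio over all tested genes was 0.97 in not-primed and 1.00 in primed plants. The share of all tested genes with a higher caterpillar mean in both was not computed, so the count describes the list.

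Zinc finger proteins and a membrane protein were lowered by both pests. AT1G26790 encodes a Dof-type zinc finger protein. AT1G26790 measured 21.7, 23.4, 16.6 and 16.2 CPM in the 4 not-primed controls, 2.46, 4.80, 2.597 and 3.26 CPM under mites and 10.3, 10.9, 11.9 and 10.3 CPM under caterpillars. Primed AT1G26790 values were 10.07, 9.94, 11.4 and 10.2 CPM in controls, 1.66, 1.91, 2.11 and 1.68 CPM under mites and 4.29, 5.80, 7.34 and 4.42 CPM under caterpillars. The states were separate in both kinds of plant. Mites changed it by −2.59 ± 0.18 and −2.49 ± 0.19 and caterpillars by −0.82 ± 0.16 and −0.91 ± 0.17 (edgeR adjusted p at most 0.000304). AT2G26695 encodes a zinc finger protein of the Ran-binding type. AT2G26695 measured 16.1, 26.7, 21.6 and 20.1 CPM in the 4 not-primed controls, 4.40, 5.70, 3.29 and 3.98 CPM under mites and 7.76, 10.4, 15.8 and 8.03 CPM under caterpillars. Primed AT2G26695 values were 23.9, 26.2, 30.9 and 22.4 CPM in controls, 3.47, 4.63, 4.5999 and 4.50 CPM under mites and 7.28, 12.9, 10.8 and 5.90 CPM under caterpillars. It too had 3 separate states. AT4G36850 encodes a PQ-loop membrane protein. AT4G36850 measured 39.2, 51.4, 42.8 and 47.1 CPM in the 4 not-primed controls, 11.6, 7.90, 10.8 and 7.83 CPM under mites and 22.8, 13.9, 30.6 and 15.1 CPM under caterpillars. Primed AT4G36850 values were 133, 130.1, 152 and 101 CPM in controls, 18.8, 26.9, 30.5 and 27.2 CPM under mites and 36.0, 53.0, 54.2 and 60.2 CPM under caterpillars. Its order was control, caterpillars and mites without overlap, with a mite change of −2.27 ± 0.21 and −2.30 ± 0.19.

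AT3G09450, of the fusaric acid resistance family, was lowered by mites and had no caterpillar call. AT3G09450 measured 16.8, 19.5, 16.3 and 18.4 CPM in the 4 not-primed controls, 10.4, 10.8, 10.9 and 8.46 CPM under mites and 17.1, 17.39, 18.6 and 17.1 CPM under caterpillars. Primed AT3G09450 values were 11.7, 8.48, 9.41 and 7.64 CPM in controls, 4.61, 2.88, 2.87 and 4.00 CPM under mites and 7.28, 10.5, 10.7 and 9.49 CPM under caterpillars. Mite libraries were below all others in both kinds of plant. The log2 fold change under mites was −0.83 ± 0.14 and −1.37 ± 0.16 (edgeR adjusted p at most 1.64e-05).

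The lowered genes that follow are given by group means; apart from AT1G32780 and AT1G68238 they were named after their values were seen, so that every member is accounted for. Those that caterpillars also lowered in both kinds of plant came first. AT1G32780, of the zinc-binding alcohol dehydrogenase family, was at 12.8 ± 1.84 CPM in not-primed controls, 2.95 ± 1.37 under mites and 8.74 ± 0.441 under caterpillars (mites against control −2.14 ± 0.18 and, primed, −1.95 ± 0.18). AT1G68238, an uncharacterized protein, was at 22.9 ± 2.73, 6.44 ± 1.62 and 14.2 ± 3.24 CPM in the same order (mites against control −1.86 ± 0.17 and, primed, −1.72 ± 0.17). PAP8 (AT2G01890), a purple acid phosphatase that releases phosphate, was at 11.4 ± 2.23, 3.99 ± 0.940 and 6.91 ± 0.849 CPM. The mite mean was the lowest of the 3 in each of them. AT2G40020, annotated as related to a nucleolar histone methyltransferase, was at 34.9 ± 2.48, 12.4 ± 0.740 and 24.1 ± 2.31 CPM. SRD2 (AT1G28560), a subunit of the complex that transcribes small nuclear RNA genes, was at 17.8 ± 2.83, 6.54 ± 1.77 and 12.4 ± 1.25 CPM. AT2G27402, annotated as plastid transcriptionally active, was at 55.9 ± 12.8, 10.6 ± 3.07 and 33.7 ± 5.68 CPM, and 0.41% of its 50-base exon windows occur elsewhere in the genome. Their caterpillar means lay between those of mites and controls. AT3G46490, of the same oxygenase superfamily as AT2G30830, was at 16.9 ± 4.54, 5.34 ± 1.68 and 9.20 ± 4.91 CPM. Without not-primed control replicates 1 and 2, the not-primed caterpillar calls of AT1G32780 (−0.41, edgeR adjusted p = 0.175), AT1G68238 (−0.48, edgeR adjusted p = 0.0887) and PAP8 (−0.48, edgeR adjusted p = 0.146) ended. The same held for SRD2 (−0.28, edgeR adjusted p = 0.292), AT2G27402 (−0.37, edgeR adjusted p = 0.259) and AT3G46490 (−0.45, edgeR adjusted p = 0.441), while AT2G40020 was still called. Single libraries also ended the not-primed call of AT1G32780 (control replicate 2) and of AT3G46490 (control replicate 1 or 2, caterpillar replicate 2 or 4). They ended the primed call of SRD2 (control replicate 3) and of AT2G27402 (control replicate 3 or 4, caterpillar replicate 1 or 4).

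Another group had a caterpillar call in 1 kind of plant. SULTR3;5 (AT5G19600), of the sulfate transporter family, was at 15.6 ± 0.798 CPM in not-primed controls, 6.61 ± 1.23 under mites and 11.6 ± 2.38 under caterpillars. AT3G17640, a leucine-rich repeat protein, was at 9.38 ± 1.52, 3.25 ± 0.971 and 6.49 ± 1.52 CPM in the same order. AT4G19380, of the fatty alcohol dehydrogenase family, was at 9.04 ± 1.93, 3.63 ± 0.336 and 6.47 ± 1.01 CPM. Caterpillars lowered these 3 in not-primed plants, as they did AT4G16563, an aspartyl protease family member at 7.78 ± 1.28, 2.01 ± 0.419 and 4.28 ± 1.60 CPM. AT3G24463, of the nuclear transport factor 2 family, was called lower under caterpillars in primed plants instead, where it was at 15.3 ± 2.68 CPM in controls, 4.19 ± 1.35 under mites and 8.01 ± 1.83 under caterpillars. It lies wholly within AT3G24460 on the same strand, so its counts are uncertain. Without control replicates 1 and 2 the not-primed caterpillar calls ended for SULTR3;5 (−0.40, edgeR adjusted p = 0.0952), AT3G17640 (−0.33, edgeR adjusted p = 0.394), AT4G19380 (−0.22, edgeR adjusted p = 0.437) and AT4G16563 (−0.70, edgeR adjusted p = 0.0926). Leaving out 1 library ended the call of AT3G17640 in 6 cases (control replicate 1, 2 or 4, caterpillar replicate 1, 2 or 4), of AT4G19380 in 2 (control replicate 1, caterpillar replicate 2) and of SULTR3;5 in 1 (caterpillar replicate 1). None of these genes had a called interaction of priming and caterpillars, so a difference between kinds of plant was not shown.

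MT1C, AT5G46220 and AT4G36105 had no caterpillar call in either kind of plant. MT1C (AT1G07610), a metal-binding metallothionein, was at 11.46 ± 1.34 CPM in not-primed controls, 6.87 ± 1.05 under mites and 13.1 ± 3.55 under caterpillars, and its primed mite call ended without mite replicate 2 or 3. AT5G46220, a transmembrane protein of unknown function, was at 5.22 ± 1.49, 2.06 ± 0.889 and 4.33 ± 0.345 CPM in the same order (mites against control −1.37 ± 0.26 and, primed, −1.27 ± 0.26). AT4G36105, annotated as a polyamine-modulated factor binding protein, was at 3.64 ± 0.721, 1.62 ± 0.343 and 3.07 ± 0.928 CPM (mites against control −1.20 ± 0.30 and, primed, −1.09 ± 0.31).

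**Figure D4:**
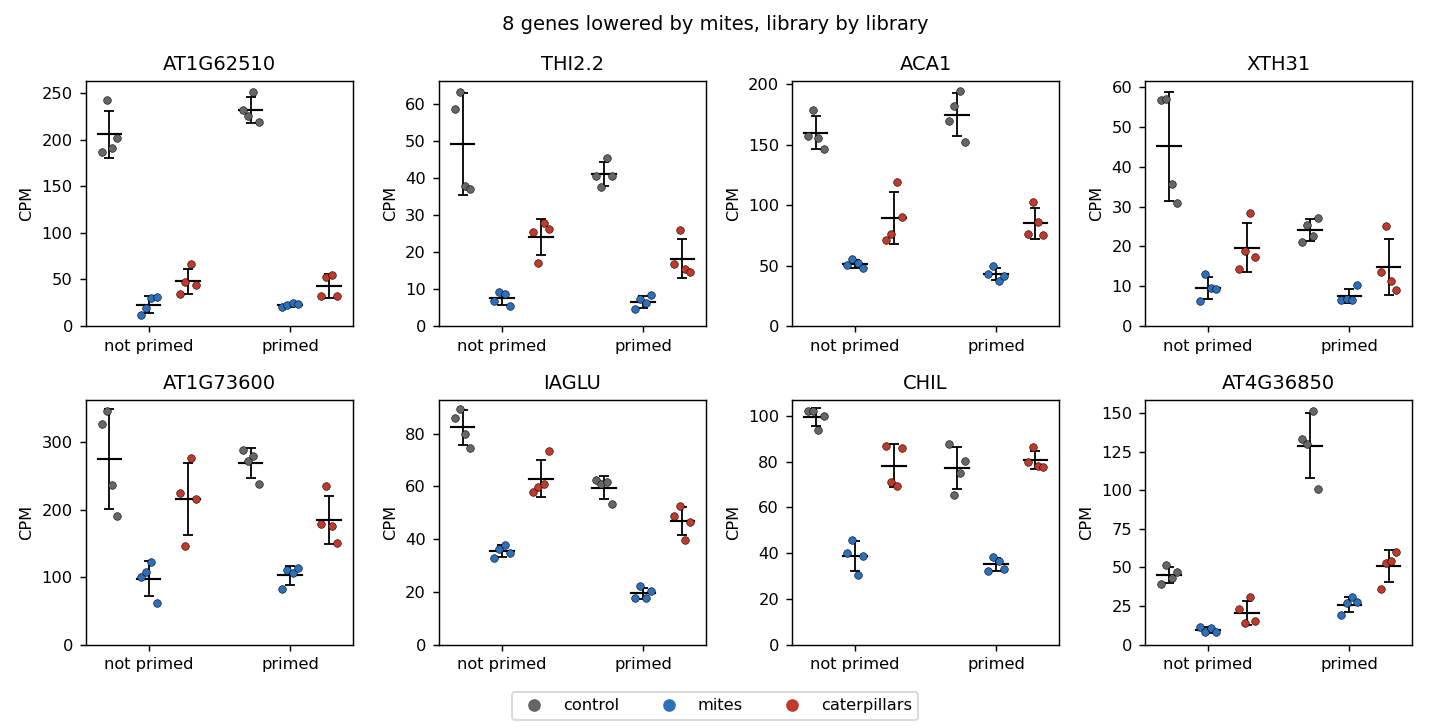
CPM of 8 lowered genes in each library (points), with the mean and SD of each group of 4 (bars), for not-primed plants on the left and primed plants on the right of each panel. The mite mean is the lowest of the 3 states in each panel.

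In the promoters of the lowered genes TATCCA, a motif known from sugar-regulated genes, occurred in 9 of 28 (32.1%), against 5 of 18 raised genes (27.8%) and 16.5% of all tested genes, on either strand. Examples are printed as above, with TATCCA or its reverse complement in capitals. In SULTR3;5 the variant AACGTG is in capitals as well.
ACA1 (chr3:19542287-19542436, minus strand): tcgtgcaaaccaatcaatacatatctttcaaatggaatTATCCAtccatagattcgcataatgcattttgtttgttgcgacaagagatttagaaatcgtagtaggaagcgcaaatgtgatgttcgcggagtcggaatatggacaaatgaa
AT1G32780 (chr1:11872927-11873076, minus strand): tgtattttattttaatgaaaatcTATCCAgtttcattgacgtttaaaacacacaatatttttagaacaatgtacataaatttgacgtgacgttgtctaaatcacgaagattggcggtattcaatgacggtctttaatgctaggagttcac
SULTR3;5 (chr5:6617048-6617197, minus strand): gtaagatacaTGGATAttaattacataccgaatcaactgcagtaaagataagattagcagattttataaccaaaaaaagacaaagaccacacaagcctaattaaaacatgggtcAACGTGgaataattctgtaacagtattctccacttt
The W-box, TTGACC or TTGACT, occurred in 9 of 28 lowered genes (32.1%), 4 of 18 raised genes (22.2%) and 32.4% of all. TATCCA was not the only other motif searched. GATAAG occurred in 3.57% of lowered genes against 14.9% of all, AATATCT in 3.57% against 11.5%. ACGTGTC occurred in 0% against 4.96%, GCCGCC in 0% against 2.71% and ACCAACC in 7.14% against 3.36%. None of these shares was tested. No 2 of the 49 members lay within 5 genes of each other, and chromosomes 1 to 5 held 13, 8, 10, 9 and 9 of them.

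The last 3 members were called under mites or caterpillars in part. 4CL3 (AT1G65060), a 4-coumarate:CoA ligase that feeds flavonoid synthesis, was one of them. 4CL3 measured 44.4, 51.1, 52.4 and 49.4 CPM in the 4 not-primed controls, 25.0, 26.1, 20.9 and 21.7 CPM under mites and 48.4, 44.3, 39.0 and 50.7 CPM under caterpillars. Primed 4CL3 values were 36.5, 29.7, 33.7 and 32.2 CPM in controls, 21.8, 20.7, 20.7 and 17.97 CPM under mites and 39.0, 41.1, 43.5 and 37.6 CPM under caterpillars. Mite libraries were below controls in both kinds of plant, and caterpillar libraries were above the primed controls but overlapped the not-primed ones. The log2 fold change was −1.09 ± 0.089 and −0.70 ± 0.091 under mites and −0.083 ± 0.086 and 0.31 ± 0.089 under caterpillars (edgeR adjusted p = 0.524 and 0.0117). TRM13 (AT2G45900) fell under mites, by log2 fold changes of −0.80 ± 0.14 and −0.64 ± 0.15 (edgeR adjusted p at most 0.00101). Under caterpillars its values were 0.086 ± 0.14 and 0.54 ± 0.14 (edgeR adjusted p = 0.696 and 0.00684). AT5G03395, a non-coding RNA gene, was called in primed plants under mites, with log2 fold changes of −0.45 ± 0.23 and −0.76 ± 0.23 (edgeR adjusted p = 0.107 and 0.00759). Its values under caterpillars were 0.50 ± 0.22 and 0.53 ± 0.22 (0.0963 and 0.0767).

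Whether methyl jasmonate on the seed changed these genes was tested first without pests, in 8 libraries the choice of genes did not use. Of the 49, 2 were higher in primed controls (7.44% of all tested genes) and 12 lower (7.35%, and 14.8% in either direction). The higher genes were AT4G36850 (1.48 ± 0.19, edgeR adjusted p = 3.72e-06) and BEE3 (1.06 ± 0.21, 0.000911). Of the lower genes, 9 belonged to the lowered class, 2 to the last 3 members and 1, OEP6, to the raised class. OEP6 differed by −0.81 ± 0.085 (edgeR adjusted p = 2.91e-07), IAGLU by −0.51 ± 0.091 (0.000384), AT1G26790 by −0.94 ± 0.16 (0.000181) and 4CL3 by −0.61 ± 0.088 (2.63e-05). Of the 12 lower calls, 6 ended without not-primed control replicates 1 and 2, those of CHIL, XTH31, AT4G16563, AT2G27402, SRD2 and AT4G19380 (edgeR adjusted p of 0.0670 to 0.422). The last 3 ended without some single control libraries as well. The call of TRM13 ended without not-primed control replicates 3 and 4 (−0.43, edgeR adjusted p = 0.0751).

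Under caterpillars 2 members were higher in primed plants (3.99% of all tested genes) and 6 lower (4.16%, and 8.15% in either direction). Under mites 2 were higher (3.54%) and 4 lower (2.82%, and 6.36% in either direction). AT4G36850 and BEE3 were higher, and IAGLU, AT3G09450 and AT1G26790 lower, in primed plants in all 3 states. BEE3 lost its call in 6 alternative fits under caterpillars and in 13 under mites. SRD2, called lower in primed plants under caterpillars (edgeR adjusted p = 0.0483), lost that call in 19 of 31 fits. AT1G26790 lost its priming call under mites in 2, with an adjusted p of up to 0.104. The interaction of priming with caterpillars was called for 0 members and 0 genes in all by edgeR, with 4 members at an unadjusted p under 0.05. The interaction with mites was called for 1 member, OEP6 (0.529% of all tested genes were higher and 1.1% called in either direction), at 0.85 ± 0.12 (edgeR adjusted p = 0.000964). Its mite libraries lay at like levels in both kinds of plant, whereas the primed controls were lower than the not-primed ones.

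**Figure D5:**
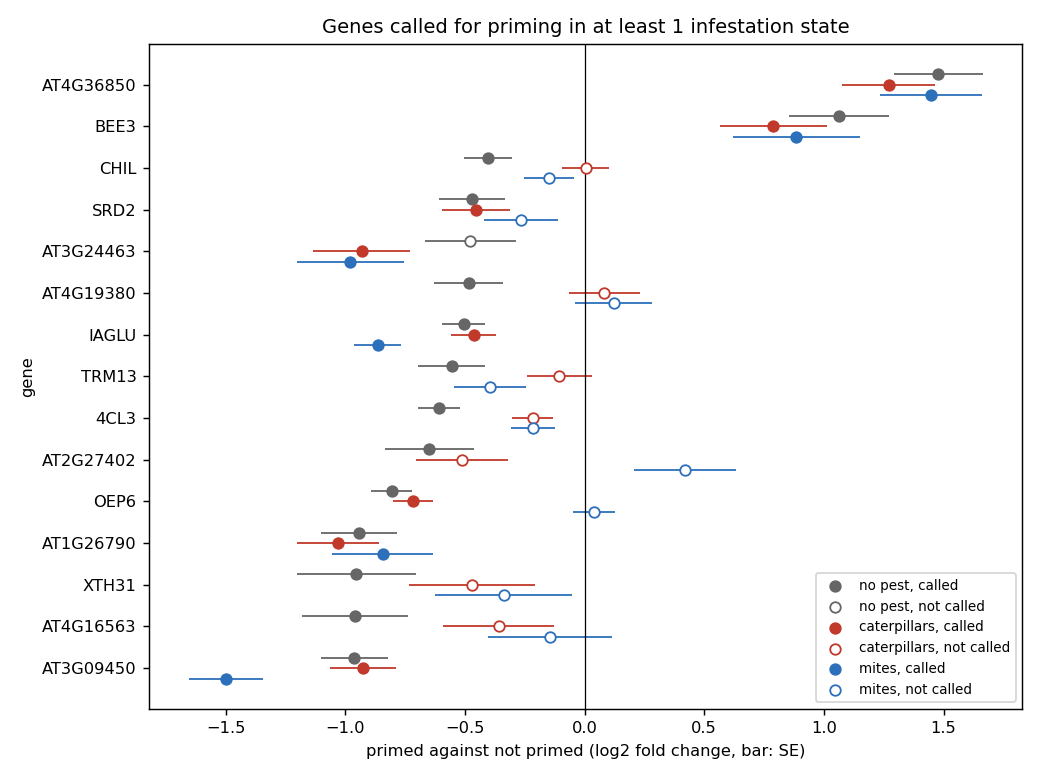
Log2 fold change of primed against not-primed plants for the members called for priming in at least 1 state, in controls, under mites and under caterpillars, with bars of 1 SE. IAGLU, AT3G09450 and AT1G26790 lie below 0 and AT4G36850 and BEE3 above 0 in all 3 states.

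Other listed pathways stood on either side of the set. Over all tested genes, 26.5% were higher and 24.9% lower under mites in not-primed plants, and 22.3% and 23.5% in primed plants. Under caterpillars these shares were 14.2% and 13.6% in not-primed and 12.1% and 11.8% in primed plants. Of 18 salicylic acid genes, 14 were higher than control under mites in each kind of plant, and 0 in not-primed and 1 in primed plants under caterpillars. Of 16 photosynthesis genes, 15 were lower under mites in not-primed and 12 in primed plants, and 4 in each under caterpillars. Their summed level in not-primed plants was 98957 to 108483 CPM in controls, 79764 to 85670 CPM under mites and 94936 to 100921 CPM under caterpillars. This level moved in the same direction as the lowered genes, and its part in their change was not tested. No photosynthesis or salicylic acid gene was a member. Of 6 trichome markers, 3 were higher under caterpillars in not-primed and 2 in primed plants, and 3 and 3 under mites, with a summed level of 34.5 to 46.2 CPM in not-primed controls, 52.4 to 65.0 CPM under mites and 52.1 to 58.5 CPM under caterpillars. Of 5 phloem markers, 2 and 1 were higher under caterpillars and 2 and 2 under mites, with 1 and 2 lower under mites. Of 4 guard cell markers 1 was higher and 1 lower under caterpillars in not-primed plants, 0 and 1 in primed plants, and 2 and 1 were lower under mites. No marker was a member, and the part of cell makeup in these results was not tested.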

How the data were processed

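RNA of 24 rosette samples was extracted with a plant RNA kit and on-column DNase treatment and made into libraries with NEBNext Ultra RNA reagents, per the labels' protocols. Reads were aligned with HISAT2 to TAIR10, per the submitters' processing notes; how reads were counted, and whether strand was used, is not given in the sources used here. The authors deposited raw counts per gene, and FPKM values, which the authors scaled by gene length and depth and which were used only to compare levels between genes. CPM was computed from the counts and each library's total (15852109 to 27986799).

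Counts were tested with edgeR 4.0.16 (R 4.3.3, limma 3.58.1): TMM scaling, filterByExpr by group, 1 mean for each of 6 groups, the quasi-likelihood test, and Benjamini-Hochberg adjustment over 20038 genes, with calls at an adjusted p under 0.05. The SE of a log2 fold change is its size divided by the square root of F. The procedure was tested on simulated data. DESeq2 1.42.0, other thresholds, a replicate block and leaving out libraries were the alternatives.

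Gene names and promoters came from RefSeq TAIR10.1, which matched 32548 identifiers (99.1%). The genes named in full are, by rule, 8 raised and 8 lowered genes, the 3 others, the 8 highest in FPKM, members on the gene lists and the 6 strongest priming differences, and other members were named after their values were seen. Members and gene lists were chosen with earlier results of these data known. Just inside the ratio threshold lay SRD2 (1.72), AT3G46490 (1.72) and AT2G27402 (1.73), and just outside it AT1G23205 (1.69), GAMMA-TIP (1.69) and IPMI2 (1.67), as the smaller of the 2 ratios. Intervals and floors cover counting error only.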

Additional observations from a re-analysis of the deposited data

Results flagged for a closer look

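In 149 groups of 4 libraries over 25 genes given library by library, 8 held a library far from the other 3, and chance gives about 1 in 20. AT4G10290 was at 0.0492 CPM in primed control replicate 3 and at 0 in the others. AT5G24080 was at 0.0540 CPM in primed control replicate 2 and at 0 in the others. For AT4G10290 and AT5G24080 the flag is 1 count against 0 counts, a pattern that is always flagged, so the rate of 1 in 20 does not apply to it. AT2G30830 stood apart in all 3 primed states: 0.506 CPM in control replicate 4 (others 0.0492 to 0.108), 6.22 CPM in mite replicate 1 (others 3.79 to 4.12) and 26.3 CPM in caterpillar replicate 1 (others 9.59 to 12.3). XTH31 was at 10.2 CPM in primed mite replicate 4 (others 6.56 to 6.70). IAGLU was at 53.2 CPM in primed control replicate 4 (others 61.0 to 62.3). AT2G26695 was at 3.47 CPM in primed mite replicate 1 (others 4.50 to 4.63).

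The response of OEP6 to mites differed between kinds of plant, by 0.85 on the log2 scale (edgeR interaction adjusted p = 0.000964), being smaller in primed plants, in which the controls were lower.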

How the results depend on the processing

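The rule returned 109 genes at a ratio of 1.5, 20 at a ratio of 2, 84 at a minimum of 1 CPM and 25 at 10 CPM, and 54 and 53 with TMM and DESeq2 scaling. Leaving out 1 library at a time it returned 43 to 55. Over these fits raised genes numbered 18 to 18 and lowered genes 27 to 29. Caterpillar calls ranged over 18 to 18 higher and 17 to 22 lower in not-primed and 19 to 21 and 14 to 18 in primed plants, and mite calls over 8 to 10 and 31 to 32, and 8 to 8 and 32 to 33. Priming calls ranged over 2 to 2 higher and 9 to 13 lower in controls, 1 to 2 and 5 to 8 under caterpillars, and 1 to 2 and 3 to 5 under mites, and the mite interaction over 1 to 2. Without not-primed control replicates 1 and 2, caterpillars lowered 7 members in not-primed plants, and without replicates 3 and 4 they lowered 23. Without replicates 3 and 4, 1 member was called for the caterpillar and 3 for the mite interaction, for which DESeq2 gave 2. Without replicate 1 of both caterpillar groups, 1 member was higher in primed plants under caterpillars and 1 under mites. With a replicate block 1 member was higher in primed plants under mites in place of 2. Libraries of the same number in different groups correlated weakly: the correlations of 60 pairs ran from −0.175 to 0.2, with 4 over 0.1. Of 24 libraries, 12 correlated best with their own number, 1 of 4 possible numbers. Whether the numbers mark a shared batch was not tested. Of 3751 recomputed values of class-defining, priming and interaction calls, 3686 kept their call, 65 lost it and 0 reversed. The lowered genes' caterpillar calls are apart from these: 14 of 21 not-primed and 3 of 16 primed calls ended at least once. The causes were not tested.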
